A study of Sus scrofa with 15 samples.

Results

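The genes described here are 49 genes of the G2/M and mitosis programme in IPEC-J2, a non-transformed line of epithelial cells from piglet jejunum. They were chosen by name: a gene was a member if its NCBI Gene number maps to 1 of 49 pig symbols of mitotic genes. The rule uses no measured value, but the list was drawn up with earlier results of these data known. Counts and medians over the set are therefore descriptions and not a test of it. All 49 have a row in both deposited tables, which list 19000 and 17001 genes, and all 49 passed the filter on low values in both. RNA sequencing gave 15 libraries in 5 groups of 3, each group named for a lentiviral vector. OV143 is the vector for miR-143 overexpression, and Lv20NC is its control. Lv133KD is the vector for miR-133 knockdown, Lv143KD is the vector whose sample label reads as a knockdown of miR-143, and Lv3NC is the control for both. The series' design text names miR-133 for the Lv143KD vector as well, so the target of that vector is unsettled, and the sample label is followed here. The miRNAs themselves were not analysed here, so the action of the vectors was not checked.

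Cells build up the machinery of division in G2. Cyclin B binds the kinase CDK1 to drive entry into mitosis, Polo and Aurora kinases mature the centrosomes and the spindle, and the chromosomal passenger complex corrects faulty attachments at the kinetochores. The spindle checkpoint holds the cell until every chromosome is attached. CDC20 then switches on the anaphase-promoting complex, a ubiquitin ligase that destroys securin and cyclin B, the sister chromatids part, and midzone kinesins and anillin build the furrow that cuts the cell apart. Most of these genes are transcribed together late in the cycle, under FOXM1 and the B-MYB and MuvB proteins, and are low in cells that have left the cycle. In bulk RNA, fewer cells in mitosis and less of these transcripts in each cell cannot be told apart.

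Values are FPKM as the authors deposited them, that is fragments per kilobase of transcript scaled to the mapped fragments of the library. The 9 knockdown libraries and the 6 overexpression libraries are in separate tables that were normalised separately. Tests were made within a table, on log2(FPKM + 1), with limma over all 11645 or 11506 genes that passed the filter. A gene was called at a Benjamini-Hochberg adjusted p under 0.05. Libraries in each group are numbered 1 to 3, and 3 values in a row are given in that order throughout. The main fit ignores these numbers. A second fit has the number as a block, since deviations from the group means correlated above 0 for all same-numbered pairs in both tables. Some libraries of different numbers correlated too: OV143 replicate 1 had 0.23 with Lv20NC replicate 1 and 0.54 with Lv20NC replicate 3. Whether a group's 3 libraries are separate cultures is not stated in the labels. The p-values therefore weigh differences against the spread of these particular samples, part of which may be technical.

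The line was checked against 8 epithelial markers. All 8 reached 1 FPKM in every overexpression library, and 7 of 8 did so in every knockdown library, VIL1 lying between 0.98 and 2.65 FPKM. Of the 8 leukocyte markers, 1, PTPRC, was listed at 0 in all 9 knockdown libraries, where AIF1 lay at 7.94 to 13.69 FPKM and CD68 at 1.33 to 2.61. The summed FPKM of 7 leukocyte markers lay between 31.2 and 41.1 in OV143, against 27.8 and 32.5 in Lv20NC. Most of that was AIF1, at 21.96 to 31.3 FPKM. The fibroblast markers summed to 2.70 to 3.02 FPKM in OV143, against 2.27 to 2.79 in Lv20NC, and the endothelial ones to 5.31 to 6.86, against 6.82 to 7.10. In the knockdown table the leukocyte sums were 13.7 to 14.9 FPKM in Lv133KD and 12.7 to 16.3 in Lv143KD, against 18.0 to 18.6 in Lv3NC. The fibroblast sums were 3.27 to 5.26 FPKM in Lv133KD and 3.82 to 5.41 in Lv143KD, against 4.09 to 6.68 in Lv3NC. The endothelial sums were 11.3 to 12.3 FPKM in Lv133KD and 11.07 to 13.63 in Lv143KD, against 11.54 to 12.85 in Lv3NC. Most of the endothelial sums was CDH5, at 8.28 to 10.75 FPKM. The part of these differences in the results was not tested. OV143 replicate 2 stands apart from the other libraries of its table: its FPKM values sum to 662022, against 518578 to 558042 in the other 5 libraries, and its highest gene holds 1.83% of the sum, against 1.34% to 1.43%. For the mitotic set, calls and many of the fold changes are given with and without it. Genes outside the set are given with it only. The fits without OV143 replicate 2 keep Lv20NC replicate 2, although the deviations of these 2 libraries from their group means correlated at 0.716. Fits that leave number 2 out of both groups are named as such.

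The mitotic genes were well expressed in both tables. Over the 9 knockdown libraries the median of the members' mean levels was 37.0 FPKM, and the means lay between 5.59 FPKM for CENPE, a kinetochore kinesin, and 119 FPKM for CCNB1, cyclin B1. Over the 6 overexpression libraries the median was 30.0 FPKM, with CDC25C lowest at 4.56 FPKM and CDK1 highest at 131 FPKM. CDC25C is a phosphatase that removes the inhibitory phosphates from CDK1. Levels set across the tables carry the limit of their separate normalisation.

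In OV143 nearly the whole mitotic set lay above Lv20NC, by modest amounts. The log2 fold change was above 0 for 48 of the 49 genes, with a median of 0.30, against a median of -0.020 over all 11506 genes tested. It ranged from -0.16 for CDC25B, the one gene below 0, to 0.62 for CDC20. No member passed the threshold in the main fit, where no gene of the table did either (0% called higher and 0% lower, the smallest adjusted p over all members being 0.124). At an unadjusted p under 0.05, 26 members were higher and 0 lower, against 4.43% of all genes higher and 6.9% lower. With the replicate number as a block, 35 were higher at that level and 0 lower, against 8.74% and 11.1% of all genes. In that fit 7 members rose past the adjusted threshold: PTTG1, KIF20A, NUSAP1, CENPA, NEK2, CDC20 and BIRC5. The background of that fit is 0.643% of all genes called higher and 1.29% called lower, or 74 and 149 genes. The highest and lowest libraries of the groups did not overlap for 31 members, 30 higher in OV143 and CDC25B lower, against 8.96% of all genes higher and 12.9% lower.

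The 7 calls depend on the scaling of the libraries. When each library was rescaled to the same FPKM sum, a setting chosen after seeing the data, no member was called with the block, the smallest adjusted p being 0.0503, and 43 of 49 members stayed above 0. The members' median log2 fold change was then 0.19, and that of all genes was -0.12. The split of calls over all genes with the block was then 28 higher and 166 lower. Summed over the 49 genes, the set held 0.384%, 0.310% and 0.384% of a library's FPKM in OV143, against 0.310%, 0.288% and 0.323% in Lv20NC. OV143 replicates 1 and 3 lie above the Lv20NC libraries on this measure, and replicate 2 lies inside their range.

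**Figure D1:**
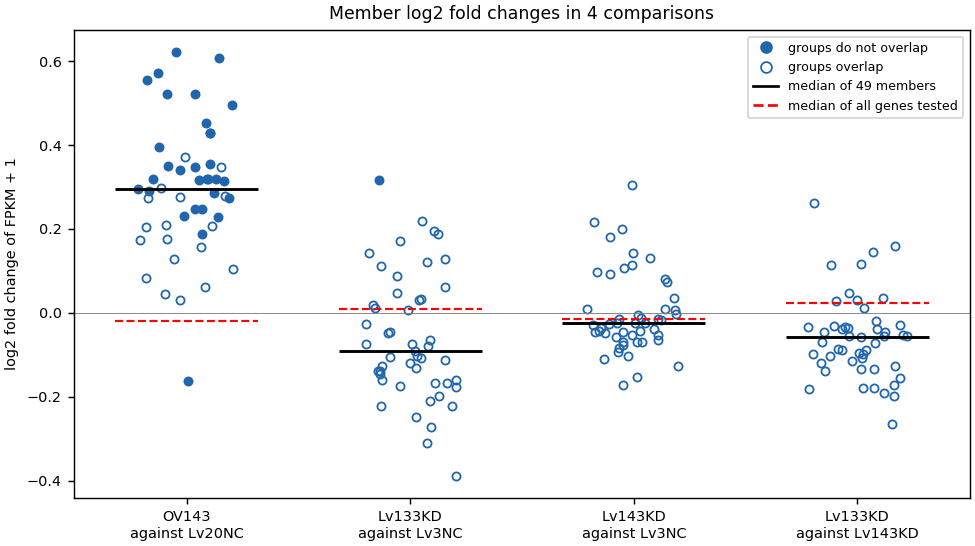
Log2 fold change of FPKM + 1 (y axis) of the 49 mitotic genes, 1 point a gene, in the 4 comparisons (x axis); filled points are genes whose groups do not overlap, black lines are the medians of the 49 genes and dashed lines those of all genes tested. In OV143 against Lv20NC 48 of 49 points lie above 0, while in Lv133KD and Lv143KD against Lv3NC 17 and 16 do.

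Among the genes of mitotic entry, the kinase partners CDK1 and CCNB1 were the most abundant. CDK1, the kinase that drives entry, was at 144, 167 and 142 FPKM in OV143, against 104, 118 and 113 FPKM in Lv20NC. CCNB1 was at 98.3, 104 and 103 FPKM in OV143, against 75.8, 76.1 and 74.5 FPKM in Lv20NC. Every OV143 library was above every Lv20NC library for both genes, and the Lv20NC values of CCNB1 lay close together. CCNB1 had a log2 fold change of 0.43 (SE 0.084, adjusted p = 0.159), and with the block its adjusted p was 0.0530. CDK1 had a log2 fold change of 0.43 (SE 0.11, adjusted p = 0.232), and 0.0580 with the block. CCNA2, cyclin A2, which pairs with CDK2 and CDK1, was at 50.0, 56.5 and 54.1 FPKM in OV143, against 44.2, 42.5 and 41.4 FPKM in Lv20NC. Its groups did not overlap.

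NEK2 is a kinase that separates the centrosomes (NCBI Gene 397258, chromosome 9, 131547044 to 131560527, Sscrofa11.1). It was at 28.8, 32.9 and 29.5 FPKM in OV143, against 19.8, 18.3 and 22.4 FPKM in Lv20NC, the lowest OV143 library lying above the highest control. It averaged 30.4 ± 2.18 FPKM in OV143 and 20.1 ± 2.06 FPKM in Lv20NC (SD, n = 3 each). In limma's fits the log2 fold change was 0.57 (SE 0.11, adjusted p = 0.0342 with the block and 0.152 without it). Without OV143 replicate 2 its adjusted p was 0.0130, with no block.

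AURKA, the Aurora kinase of the centrosomes and spindle poles, was at 54.2, 57.8 and 54.8 FPKM in OV143, against 44.4, 46.6 and 42.3 FPKM in Lv20NC. PLK1, the Polo-like kinase, was at 15.1, 23.3 and 15.5 FPKM in OV143, against 14.6, 14.0 and 13.1 FPKM in Lv20NC. Both were higher in OV143 with no overlap, but PLK1 in replicates 1 and 3 lay just above the highest control and its difference came mostly from replicate 2. Their log2 fold changes were 0.32 for AURKA and 0.32 for PLK1 (SE 0.088 and 0.17), and 0.29 and 0.13 without OV143 replicate 2. FOXM1, the transcription factor of the programme, was at 9.03, 11.02 and 9.19 FPKM in OV143, against 9.71, 9.32 and 7.92 FPKM in Lv20NC. Its groups overlapped, with OV143 replicates 1 and 3 below the highest control, and it had a log2 fold change of 0.11 (SE 0.12, adjusted p = 0.765), or 0.023 without replicate 2.

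The phosphatases that activate CDK1 did not follow the cyclins. CDC25B was at 73.2, 66.6 and 70.5 FPKM in OV143, against 81.2, 77.1 and 77.1 FPKM in Lv20NC. All OV143 libraries were below all Lv20NC libraries, with a log2 fold change of -0.16 (SE 0.088, adjusted p = 0.535), and its libraries spread the least of all members in this table, 1.22-fold between the highest and the lowest. CDC25C was at 5.04, 4.02 and 4.79 FPKM in OV143, against 4.95, 3.79 and 4.77 FPKM in Lv20NC, with overlapping groups and a log2 fold change of 0.031 (SE 0.13, adjusted p = 0.935), or 0.11 without replicate 2. For CDC25C it was 0.013 with the block and number 2 left out of both groups. The other members of this role are CCNB2, a second cyclin B, and PBK, a mitotic protein kinase. Their log2 fold changes were 0.29 and 0.35, with no overlap between groups.

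The chromosomal passenger complex has AURKB as its kinase, INCENP as its scaffold, and survivin (BIRC5) and borealin (CDCA8) as its targeting subunits. BIRC5 (NCBI Gene 397266, chromosome 12, 3747276 to 3755214) was at 49.6, 79.8 and 62.6 FPKM in OV143, against 42.0, 48.7 and 37.4 FPKM in Lv20NC. OV143 replicate 1 lay just above Lv20NC replicate 2, so the groups barely separate. It averaged 64.0 ± 15.2 FPKM in OV143 and 42.7 ± 5.67 FPKM in Lv20NC (SD, n = 3 each). By limma the log2 fold change was 0.56 (SE 0.12, adjusted p = 0.0463 with the block and 0.313 without it). AURKB was at 25.1, 39.8 and 25.9 FPKM in OV143, against 23.4, 24.0 and 21.8 FPKM in Lv20NC. OV143 replicate 2 stood far above the other 5 libraries, which lay between 21.8 and 25.9 FPKM. AURKB had a log2 fold change of 0.35 (SE 0.18, adjusted p = 0.504), INCENP a log2 fold change of 0.35 and CDCA8 one of 0.25. Leaving out OV143 replicate 2 gave 0.14 for AURKB, 0.16 for INCENP, 0.23 for CDCA8 and 0.39 for BIRC5. In that fit 0 of the 4 subunits was called, and the adjusted p of BIRC5 was 0.0959. The block with number 2 left out of both groups gave 0.17 for AURKB, 0.14 for INCENP, 0.24 for CDCA8 and 0.48 for BIRC5.

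The spindle checkpoint genes were BUB1 and TTK, which are kinases, BUB1B, which encodes BUBR1, and MAD2L1, which encodes MAD2. BUB1 was at 35.5, 29.6 and 37.9 FPKM in OV143, against 27.2, 26.9 and 30.0 FPKM in Lv20NC. OV143 replicate 2 lay just inside the control range and replicates 1 and 3 were above it. BUB1 had a log2 fold change of 0.28 (SE 0.12, adjusted p = 0.437). The other checkpoint genes had log2 fold changes of 0.37 for BUB1B, 0.32 for MAD2L1 and 0.27 for TTK, and the groups separated for MAD2L1. With replicate 2 left out the values were 0.38 for BUB1, 0.52 for BUB1B, 0.32 for MAD2L1 and 0.43 for TTK. In the same order they were 0.35, 0.43, 0.35 and 0.37 with the block and number 2 left out of both groups.

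At the centromere and kinetochore, CENPA is the histone variant that marks the centromere (NCBI Gene 100513079, chromosome 3, 112263912 to 112272638). It was at 28.7, 30.1 and 29.0 FPKM in OV143, against 19.8, 20.9 and 20.7 FPKM in Lv20NC. The OV143 libraries lay close together, well clear of the controls. CENPA averaged 29.3 ± 0.765 FPKM in OV143 and 20.5 ± 0.601 FPKM in Lv20NC (SD, n = 3 each). For CENPA the log2 fold change was 0.50 (SE 0.10, adjusted p = 0.0342 with the block and 0.124 without it), and without OV143 replicate 2 its adjusted p was 0.00755. NDC80, the subunit that grips microtubules, was at 35.2, 29.9 and 35.2 FPKM in OV143, against 26.9, 26.4 and 29.1 FPKM in Lv20NC. Its groups did not overlap, and neither did those of its complex partners NUF2 and SPC25. The complex had log2 fold changes of 0.27 for NDC80, 0.32 for NUF2 and 0.34 for SPC25.

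For the large kinetochore proteins the OV143 libraries disagreed. CENPE was at 8.69, 4.61 and 9.38 FPKM in OV143, against 6.90, 6 and 8.29 FPKM in Lv20NC. CENPF was at 27.4, 13.6 and 27.5 FPKM in OV143, against 20.5, 15.3 and 23.3 FPKM in Lv20NC. In both genes OV143 replicates 1 and 3 exceeded every control, while replicate 2 was the lowest library of the table. CENPF had a log2 fold change of 0.16 (SE 0.28, adjusted p = 0.843) and CENPE a log2 fold change of 0.045 (SE 0.24, adjusted p = 0.950). These low values rest on replicate 2: without it the log2 fold changes were 0.48 for CENPF and 0.32 for CENPE, beside 0.48 for CENPA, 0.35 for NDC80 and 0.36 for NUF2. That fit keeps Lv20NC replicate 2, the lowest control for CENPF and CENPE. With the block and number 2 left out of both groups, they had 0.32 and 0.23. In the same fit CENPA had 0.49, NDC80 0.32 and NUF2 0.39.

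The anaphase genes had a role median of 0.48, the highest of the 8 roles over all libraries. That rank rests on OV143 replicate 2: without it the median was 0.31, below 0.46 for the spindle and 0.40 for the checkpoint genes. With the block and number 2 left out of both groups, these roles lay close together. Their medians were then 0.34 for anaphase, 0.35 for spindle and 0.36 for checkpoint genes, beside 0.34 for the kinetochore. CDC20 activates the anaphase-promoting complex (NCBI Gene 397379, chromosome 6, 167886266 to 167890587). It was at 65.5, 108 and 68.7 FPKM in OV143, against 51.5, 53.1 and 47.8 FPKM in Lv20NC. The OV143 libraries were all above the controls and replicate 2 was far above the other two, giving CDC20 the widest spread of the members in this table, 2.26-fold. CDC20 averaged 80.8 ± 23.7 FPKM in OV143 and 50.8 ± 2.73 FPKM in Lv20NC (SD, n = 3 each). By limma the log2 fold change was 0.62 (SE 0.13, adjusted p = 0.0438 with the block and 0.284 without it), and without OV143 replicate 2 it was 0.40 with an adjusted p of 0.0191.

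PTTG1 is securin, the inhibitor of separase (NCBI Gene 397015, chromosome 16, 63104698 to 63112382). It was at 74.1, 109 and 79.4 FPKM in OV143, against 53.7, 59.1 and 56.2 FPKM in Lv20NC. OV143 replicate 2 was again the highest, and the lowest OV143 library lay well above the highest control. PTTG1 averaged 87.5 ± 18.8 FPKM in OV143 and 56.3 ± 2.68 FPKM in Lv20NC (SD, n = 3 each). For securin the log2 fold change was 0.61 (SE 0.11, adjusted p = 0.0275 with the block and 0.229 without it), and without OV143 replicate 2 it was 0.44 with an adjusted p of 0.0128. UBE2C, the ubiquitin-conjugating enzyme of the complex, was at 83.7, 124 and 84.0 FPKM in OV143, against 77.5, 84.6 and 63.9 FPKM in Lv20NC. OV143 replicates 1 and 3 lay just under the highest control, so the groups overlapped, with a log2 fold change of 0.35 (SE 0.18, adjusted p = 0.518), or 0.16 without replicate 2. For UBE2C it was 0.25 with the block and number 2 left out of both groups. ESPL1, the gene of separase itself, had a log2 fold change of 0.30 and no overlap.

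Of the spindle genes, NUSAP1 bundles microtubules near chromosomes (NCBI Gene 106509022, chromosome 1, 129992797 to 130065641). It was at 41.7, 38.1 and 42.3 FPKM in OV143, against 26.5, 27.0 and 30.7 FPKM in Lv20NC, with no overlap between the groups. NUSAP1 averaged 40.7 ± 2.23 FPKM in OV143 and 28.1 ± 2.29 FPKM in Lv20NC (SD, n = 3 each). By limma the log2 fold change was 0.52 (SE 0.10, adjusted p = 0.0313 with the block and 0.152 without it), and without OV143 replicate 2 its adjusted p was 0.00551. TPX2, which activates Aurora A and seeds microtubules, was at 109.7, 99.6 and 111 FPKM in OV143, against 83.3, 85.6 and 87.4 FPKM in Lv20NC. HMMR, a protein of the spindle poles, was at 27.2, 17.9 and 30.7 FPKM in OV143, against 22.03, 19.3 and 24.0 FPKM in Lv20NC. TPX2 was separate in the groups, while OV143 replicate 2 was the lowest library for HMMR. KIF2C, a kinesin that shortens microtubules, was at 18.2, 19.0 and 17.9 FPKM in OV143, against 14.6, 15.9 and 14.1 FPKM in Lv20NC, with no overlap. Spindle genes thus had log2 fold changes of 0.31 for TPX2, 0.18 for HMMR and 0.29 for KIF2C. The value was 0.45 for DLGAP5, which stabilises kinetochore fibres, 0.30 for ASPM, a spindle pole protein, and 0.28 for KIF11, the kinesin that pushes the poles apart. Leaving out replicate 2 gave 0.40 for HMMR, 0.50 for ASPM and 0.46 for KIF11. The block with number 2 left out of both groups gave smaller values, 0.32, 0.35 and 0.35.

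The genes of the midzone and of cytokinesis were led by KIF20A, the kinesin that carries the passenger complex to the midzone (NCBI Gene 100515193, chromosome 2, 140202316 to 140213144). It was at 23.1, 25.9 and 25.3 FPKM in OV143, against 16.4, 16.9 and 17.4 FPKM in Lv20NC. The controls lay close together and every OV143 library was above them. KIF20A averaged 24.8 ± 1.505 FPKM in OV143 and 16.9 ± 0.460 FPKM in Lv20NC (SD, n = 3 each). For KIF20A the log2 fold change was 0.52 (SE 0.10, adjusted p = 0.0310 with the block and 0.124 without it). Without OV143 replicate 2 its adjusted p was 0.00870.

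PRC1, which crosslinks midzone microtubules, was at 61.9, 54.3 and 63.8 FPKM in OV143, against 45.7, 41.9 and 48.4 FPKM in Lv20NC. KIF23, the kinesin of the centralspindlin complex, was at 38.8, 35.5 and 41.2 FPKM in OV143, against 33.4, 30.1 and 34.6 FPKM in Lv20NC. Neither gene's groups overlapped, although KIF23 in OV143 replicate 2 was just above the highest control. ANLN, anillin, the scaffold of the contractile ring, was at 40.1, 23.9 and 40.1 FPKM in OV143, against 32.7, 25.7 and 38.3 FPKM in Lv20NC. Here OV143 replicate 2 was the lowest library of all 6. These 3 genes had log2 fold changes of 0.40 for PRC1, 0.23 for KIF23 and 0.083 for ANLN (SE 0.11, 0.10 and 0.23). RACGAP1, the partner of KIF23 in centralspindlin, had 0.25 and no overlap. ECT2, the activator of RhoA in the furrow, had 0.21, and KIF4A, a kinesin of chromosomes and midzone, had 0.17. Of these, ANLN, ECT2 and KIF4A were lowest in replicate 2, and had log2 fold changes of 0.32, 0.43 and 0.32 without it. With the block and number 2 left out of both groups, these 3 values were 0.18, 0.34 and 0.28.

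The chromosome structure genes had the lowest role median over all libraries, 0.20. Without OV143 replicate 2 it was 0.28, and the passenger genes were lowest with 0.19. Leaving number 2 out of both groups, with the block, gave 0.26 for the chromosome genes and 0.20 for the passenger genes. TOP2A, the topoisomerase that untangles sister chromatids, was at 75.3, 45.0 and 76.2 FPKM in OV143, against 57.0, 46.3 and 63.2 FPKM in Lv20NC. OV143 replicate 2 was below all controls and replicates 1 and 3 were above all of them. SMC4, an ATPase of condensin, was at 86.0, 75.5 and 85.4 FPKM in OV143, against 67.2, 69.4 and 73.6 FPKM in Lv20NC. Its groups did not overlap. NCAPG, a condensin I subunit, was at 19.3, 14.9 and 18.1 FPKM in OV143, against 14.6, 14.3 and 15.9 FPKM in Lv20NC, and NCAPH, another, was at 28.4, 26.9 and 30.2 FPKM in OV143, against 24.6, 24.98 and 25.03 FPKM in Lv20NC. Replicate 2 pulled NCAPG into the control range but left NCAPH above it. MKI67, the proliferation marker Ki-67, was at 29.3, 21.98 and 29.5 FPKM in OV143, against 25.9, 20.9 and 26.6 FPKM in Lv20NC, also with replicate 2 inside the control range. The log2 fold changes were 0.21 for TOP2A, 0.23 for SMC4, 0.20 for NCAPG, 0.19 for NCAPH, 0.061 for SMC2, the partner of SMC4, and 0.13 for MKI67. Without replicate 2 they were 0.45 for TOP2A, 0.29 for SMC4, 0.31 for NCAPG, 0.23 for NCAPH, 0.27 for SMC2 and 0.26 for MKI67. In the same order they were 0.33, 0.28, 0.28, 0.23, 0.21 and 0.16 with the block and number 2 left out of both groups.

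**Figure D2:**
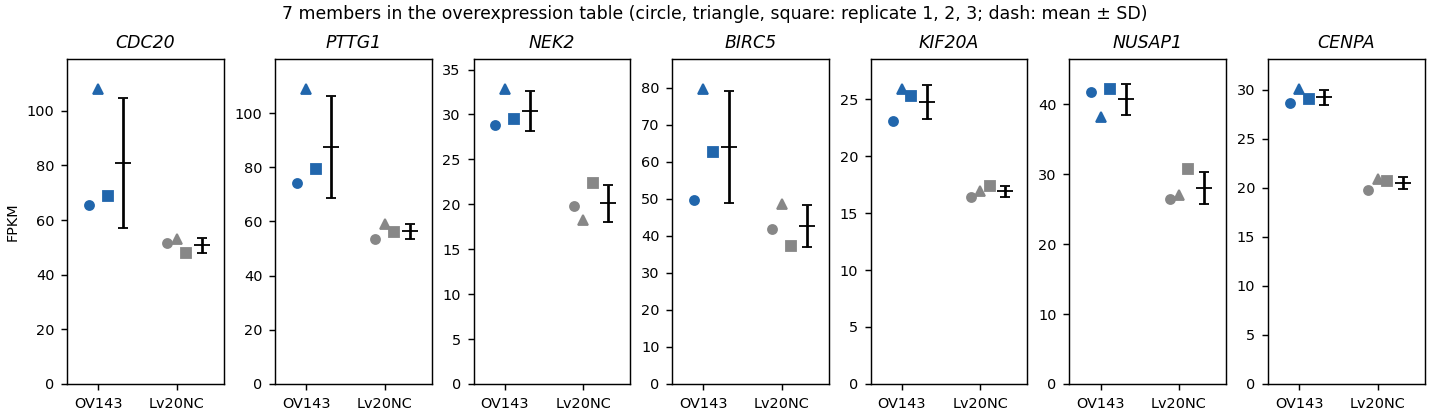
FPKM by library (circle, triangle and square for replicates 1, 2 and 3) and group mean ± SD (dash and bar) of the 7 mitotic genes called with the replicate number as a block, OV143 left and Lv20NC right. In every panel the OV143 libraries lie above the Lv20NC libraries, and for CDC20 and PTTG1 OV143 replicate 2 reaches 108 and 109 FPKM.

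The mitotic genes split within OV143 by library. In replicates 1 and 3, 46 and 45 of the 49 genes were above all 3 controls, and in replicate 2 this held for 32. In both replicates 1 and 3, 45 of 49 were above every control, against 16.9% of all genes tested (23.6% lay below every control in both). The 4 exceptions were CDC25B, CDC25C, FOXM1 and UBE2C. Replicate 2 was under the mean of replicates 1 and 3 for 30 genes and over it for 19. The genes it held lowest relative to that mean were CENPF at 0.495, CENPE at 0.510, TOP2A at 0.593, ANLN at 0.596 and ASPM at 0.609. Those it held highest were CDC20 at 1.61, AURKB at 1.56, INCENP at 1.54, PLK1 at 1.52 and UBE2C at 1.48. For 9 genes replicate 2 was below all 3 controls: ANLN, CDC25B, CENPE, CENPF, ECT2, HMMR, KIF4A, SMC2 and TOP2A. The shares of all genes above or below every control were not taken for single libraries, so these single-library counts have no background.

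Leaving out OV143 replicate 2 changed the calls. Without it 21 members were called higher and 0 lower with no block, against 1.34% of all genes higher and 3.12% lower. They were CDK1, CCNB1, NEK2, PBK, BUB1, BUB1B, TTK, CENPA, NDC80, NUF2, CDC20, PTTG1, TPX2, KIF11, HMMR, DLGAP5, NUSAP1, KIF20A, PRC1, ECT2 and TOP2A. In this fit OV143 has 2 libraries, which are assumed to vary like the controls. With the block, and leaving out number 2 in each group, 35 members were called higher, against 5.6% of all genes higher and 7.14% lower, in a fit of 4 libraries with 1 residual degree of freedom. Leaving out number 1 or number 3 in the same way gave 9 and 3 called members. Over all 11506 genes tested these fits called 705 and 297, higher and lower together. By same-numbered libraries, OV143 against Lv20NC, the median log2 difference over the members was 0.35 for number 1, 0.24 for number 2 and 0.28 for number 3, with 47, 40 and 48 genes above 0. For 39 genes the OV143 library was higher in each of the 3 pairs, and for CDC25B it was lower in each. The matching shares of all genes were not taken, so these pair counts have no background.

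**Figure D3:**
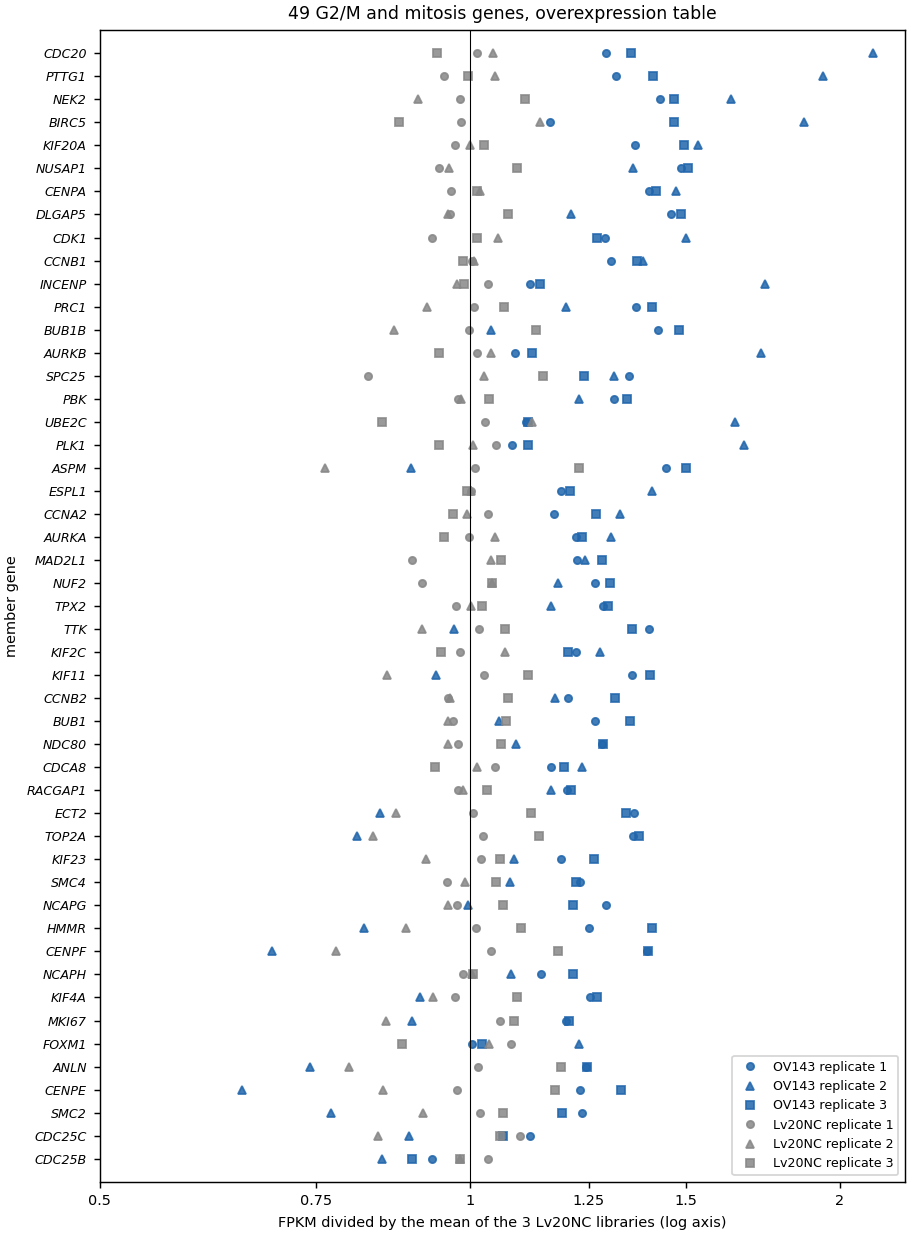
FPKM of each OV143 and Lv20NC library divided by the mean of the 3 Lv20NC libraries (x axis, log scale) for the 49 mitotic genes (y axis, from the highest mean ratio of the 3 OV143 libraries at the top to the lowest). OV143 replicates 1 and 3 run close together, while replicate 2 lies right of them for CDC20, AURKB, INCENP, PLK1 and UBE2C and left of them, below all controls, for CENPF, CENPE and TOP2A.

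Genes of the same processes outside the set were described by 6 neighbouring lists, by count and median. In OV143 all values of these lists include replicate 2, and none was taken without it. Over all genes tested there, 45.8% had a log2 fold change above 0, with a median of -0.020. With the block 0.643% of all genes were called higher and 1.29% lower. Of 25 other spindle and cytokinesis genes, 21 had a log2 fold change above 0 in OV143, with a median of 0.17, and 1 was called with the block. That gene, PIMREG, averaged 6.45 ± 2.15 FPKM in OV143 and 3.73 ± 0.745 FPKM in Lv20NC (SD, n = 3 each), with a log2 fold change of 0.63 (adjusted p = 0.0324 with the block). Of 30 outer and inner kinetochore genes, 23 were above 0, with a median of 0.14 and 0 called. The smallest p-values there belonged to CENPL, SPC24 and SKA1, with log2 fold changes of 0.23, 0.43 and 0.31. Of 19 genes of mitotic entry control, 10 were above 0, with a median of 0.070. CKS2, a small subunit that binds CDK1, averaged 188 ± 48.9 FPKM in OV143 and 114 ± 11.8 FPKM in Lv20NC (SD, n = 3 each) and rose with the block (log2 fold change 0.70, adjusted p = 0.0209).

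The medians of the other 3 lists lay nearer to 0. Of 17 genes of the anaphase-promoting complex and its partners, 10 were above 0, with a median of 0.039, and 0 were called. ANAPC13, UBE2S and CDC26 had the smallest p-values, with log2 fold changes of 0.48, 0.36 and 0.27. Of 17 cohesin and condensin genes, 10 were above 0, with a median of 0.021 and 0 called. NCAPD2, a condensin I subunit, led these with 0.30. Of 18 DREAM and MuvB regulators, which hold the programme off or switch it on, 5 were above 0, with a median of -0.069. E2F3 and E2F5 had the smallest p-values, with log2 fold changes of -0.25 and -0.20, and RBBP4 had 0.16.

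In the knockdown table no mitotic gene was called in any comparison. Lv133KD and Lv143KD were each set against the same 3 Lv3NC libraries, so the results of both share these controls. In Lv133KD 17 of the 49 genes were above 0 and 32 below, with a median log2 fold change of -0.090, against 0.0083 over all 11645 genes. In Lv143KD 16 were above 0 and 33 below, with a median of -0.025, against -0.014. Called members numbered 0 with and without the block in both. The background was 0.0172% of all genes higher and 0% lower without the block in each comparison. With the block it was 0.249% higher and 0.00859% lower in Lv133KD, and 0.155% higher and 0.0172% lower in Lv143KD. At an unadjusted p under 0.05, limma gave 0 members in both without the block. Over all genes that level gave 2.4% higher and 0.867% lower in Lv133KD, and 1.37% and 0.421% in Lv143KD. With the block there were 2 members higher and 3 lower in Lv133KD, against 9.05% and 7.45% of all genes. In Lv143KD there was 1 higher, CENPF, and 0 lower, against 3.07% and 2.67%.

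The groups of the knockdown table overlapped for nearly every member. In Lv133KD, CDC25B was the one gene with all libraries above Lv3NC, against 4.69% of all genes, and 0 lay below, against 3.33%. In Lv143KD 0 members separated either way, against 2.11% higher and 2.03% lower. Set against Lv143KD, Lv133KD had 10 members above 0 and 39 below, with a median of -0.057, against 0.022 for all genes. There 0 members were called (0% of all genes with or without the block) and 0 separated, against 2.11% higher and 0.55% lower. At an unadjusted p under 0.05 there were 0 members in either fit, against 0.0945% of all genes higher and 0.0343% lower without the block and 1.3% and 0.498% with it.

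The spread inside the groups was larger than the differences between them. Lv3NC replicate 3 was the highest of the 9 libraries for 31 of the 49 genes, and the libraries numbered 2 held the highest value for the other 18. Without Lv3NC replicate 3 the median log2 fold change of the members was 0.033 in Lv133KD and 0.097 in Lv143KD, so the sign of both medians rests on that library. By number, the median difference of Lv133KD to Lv3NC was 0.0020, 0.083 and -0.38 for numbers 1, 2 and 3, with 25, 41 and 10 genes above 0. For Lv143KD it was 0.022, 0.12 and -0.17, with 29, 42 and 5 genes above 0. The same-numbered pairs with number 3 are the ones in which most genes lay below the control. Shares of all genes were not taken for these pairs either.

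**Figure D4:**
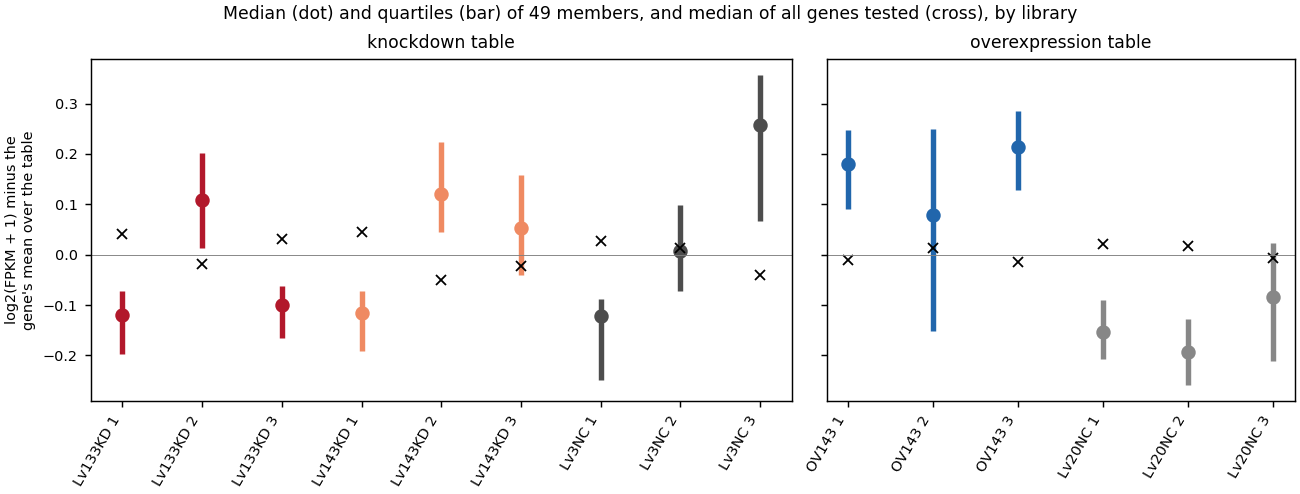
Median (dot) and quartiles (bar) over the 49 mitotic genes of log2(FPKM + 1) minus the mean of each gene over its table (y axis), by library (x axis), with the median of all genes tested as a cross. The OV143 medians lie between 0.079 and 0.21 and those of Lv20NC between -0.19 and -0.084, while in the knockdown table Lv3NC replicate 3 has the highest median, 0.26, and each group has a library at -0.12.

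Genes of mitotic entry showed both kinds of library. CCNB1 was at 103, 114 and 113 FPKM in Lv133KD, 104, 112 and 149 FPKM in Lv143KD, against 113, 106 and 161 FPKM in Lv3NC. Lv3NC replicate 3 and Lv143KD replicate 3 stood well above the other 7 libraries. CDK1 was at 96.9, 141 and 103 FPKM in Lv133KD, 97.4, 147 and 118 FPKM in Lv143KD, against 97.1, 125 and 143 FPKM in Lv3NC. All libraries numbered 1 lay between 96.9 and 97.4 FPKM, below the other 6. CCNA2 was at 44.9, 50.1 and 45.0 FPKM in Lv133KD, 44.1, 55.2 and 60.9 FPKM in Lv143KD, against 48.2, 51.7 and 68.8 FPKM in Lv3NC, the Lv133KD library being below its same-numbered control in each pair. NEK2 was at 25.9, 31.1 and 25.2 FPKM in Lv133KD, 24.4, 31.5 and 29.0 FPKM in Lv143KD, against 22.5, 29.4 and 39.0 FPKM in Lv3NC, with Lv3NC holding both the lowest and the highest library. AURKA was at 48.1, 55.1 and 47.8 FPKM in Lv133KD, 48.1, 57.1 and 57.3 FPKM in Lv143KD, against 40.0, 51.8 and 59.6 FPKM in Lv3NC. PLK1 was at 24.3, 23.9 and 19.5 FPKM in Lv133KD, 22.5, 24.6 and 22.9 FPKM in Lv143KD, against 19.4, 25.1 and 28.2 FPKM in Lv3NC. In both kinases too Lv3NC spanned the values of the other groups.

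CDC25B was at 63.4, 62.0 and 61.0 FPKM in Lv133KD, 53.3, 67.2 and 52.3 FPKM in Lv143KD, against 36.7, 57.6 and 58.1 FPKM in Lv3NC. The Lv133KD libraries were tight and above Lv3NC, in which replicate 1 was far below the rest, with a log2 fold change of 0.32 (SE 0.18, adjusted p = 0.926) in Lv133KD and a log2 fold change of 0.20 (SE 0.18, adjusted p = 1.00) in Lv143KD. CDC25C was at 8.92, 10.5 and 7.85 FPKM in Lv133KD, 8.33, 9.41 and 6.42 FPKM in Lv143KD, against 7.73, 9.10 and 6.61 FPKM in Lv3NC. The libraries numbered 2 were above the other 6. FOXM1 was at 11.9, 11.7 and 9.63 FPKM in Lv133KD, 11.6, 12.1 and 8.58 FPKM in Lv143KD, against 9.61, 12.9 and 10.1 FPKM in Lv3NC, with the groups overlapping and number 3 the lowest library of Lv133KD and Lv143KD.

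In the passenger complex, AURKB was at 34.5, 41.3 and 29.2 FPKM in Lv133KD, 33.0, 39.6 and 35.9 FPKM in Lv143KD, against 34.4, 42.5 and 44.5 FPKM in Lv3NC. Lv143KD was below its same-numbered control in each pair, with a log2 fold change of -0.15 (SE 0.15, adjusted p = 1.00). BIRC5 was at 72.3, 68.0 and 65.0 FPKM in Lv133KD, 71.2, 68.0 and 70.2 FPKM in Lv143KD, against 65.5, 66.9 and 80.3 FPKM in Lv3NC. Lv3NC replicate 3 was high and the other 8 libraries lay close together. For the checkpoint kinase BUB1 the values were 34.7, 34.6 and 35.8 FPKM in Lv133KD, 33.4, 34.2 and 48.7 FPKM in Lv143KD, against 35.0, 32.7 and 53.3 FPKM in Lv3NC. Lv143KD replicate 3 and Lv3NC replicate 3 stood apart, and the other 7 libraries lay between 32.7 and 35.8 FPKM.

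CENPE varied most of all members, 4.99-fold between libraries. It was at 1.91, 9.53 and 5.65 FPKM in Lv133KD, 3.74, 9.53 and 5.08 FPKM in Lv143KD, against 2.37, 8.49 and 4.04 FPKM in Lv3NC. The libraries numbered 2 were highest in all 3 groups, number 1 lowest, and no group was apart from the others. CENPF was at 20.3, 34.7 and 24.6 FPKM in Lv133KD, 23.1, 38.6 and 27.2 FPKM in Lv143KD, against 20.2, 30.8 and 24.4 FPKM in Lv3NC, in the same order of numbers. CENPF was above its same-numbered control in each pair in both knockdown groups. CENPA was at 29.0, 28.7 and 29.7 FPKM in Lv133KD, 28.3, 29.8 and 39.4 FPKM in Lv143KD, against 29.1, 28.2 and 48.5 FPKM in Lv3NC, and NDC80 was at 26.8, 31.4 and 27.9 FPKM in Lv133KD, 28.5, 31.1 and 32.5 FPKM in Lv143KD, against 28.1, 28.2 and 38.2 FPKM in Lv3NC. For both, Lv3NC replicate 3 and then Lv143KD replicate 3 were highest, the pattern of CCNB1 and BUB1 and not that of CENPE.

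Of the 4 anaphase genes, 3 were highest in Lv3NC replicate 3. CDC20 was at 61.5, 56.3 and 57.8 FPKM in Lv133KD, 59.7, 55.8 and 69.7 FPKM in Lv143KD, against 52.5, 58.9 and 88.0 FPKM in Lv3NC. PTTG1 was at 55.4, 59.0 and 56.5 FPKM in Lv133KD, 54.4, 60.3 and 61.1 FPKM in Lv143KD, against 49.4, 55.5 and 78.9 FPKM in Lv3NC. UBE2C was at 101, 125 and 89.5 FPKM in Lv133KD, 97.1, 127 and 133 FPKM in Lv143KD, against 101, 121 and 147 FPKM in Lv3NC. Lv3NC replicate 3 was highest for these 3 genes, and for CDC20 the 7 libraries other than it and Lv143KD replicate 3 lay between 52.5 and 61.5 FPKM. ESPL1 differed from them, at 10.3, 13.2 and 9.01 FPKM in Lv133KD, 8.89, 12.6 and 5.88 FPKM in Lv143KD, against 7.21, 13.0 and 7.79 FPKM in Lv3NC, with the libraries numbered 2 above the other 6.

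Among the spindle genes, HMMR had the lowest values of Lv133KD relative to Lv3NC. It was at 22.8, 26.4 and 28.1 FPKM in Lv133KD, 24.6, 29.6 and 41.0 FPKM in Lv143KD, against 29.1, 27.1 and 49.5 FPKM in Lv3NC. Each Lv133KD library was below its same-numbered control and Lv3NC replicate 3 was far above the rest, yet Lv133KD replicate 3 lay above Lv3NC replicate 2. HMMR had a log2 fold change of -0.39 (SE 0.24, adjusted p = 0.926) against Lv3NC, and with the block its adjusted p was 0.239. Against Lv143KD it had a log2 fold change of -0.26 (SE 0.24, adjusted p = 1.00). NUSAP1 was at 30.4, 37.8 and 30.7 FPKM in Lv133KD, 30.6, 41.8 and 39.8 FPKM in Lv143KD, against 33.5, 36.6 and 51.6 FPKM in Lv3NC. TPX2 was at 99.9, 104 and 101 FPKM in Lv133KD, 99.2, 109.5 and 112 FPKM in Lv143KD, against 98.6, 98.9 and 126 FPKM in Lv3NC. KIF2C was at 22.3, 20.2 and 20.4 FPKM in Lv133KD, 21.8, 20.1 and 22.6 FPKM in Lv143KD, against 16.3, 18.1 and 22.7 FPKM in Lv3NC. Lv3NC replicate 3 was highest for all 3, and KIF2C was lowest in Lv3NC replicates 1 and 2, with a log2 fold change of 0.18 (SE 0.13, adjusted p = 1.00) in Lv143KD.

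In cytokinesis, KIF20A was at 25.2, 31.0 and 23.7 FPKM in Lv133KD, 24.9, 29.5 and 27.2 FPKM in Lv143KD, against 21.3, 27.2 and 33.8 FPKM in Lv3NC. PRC1 was at 52.2, 63.1 and 52.0 FPKM in Lv133KD, 50.5, 64.2 and 56.8 FPKM in Lv143KD, against 49.6, 59.4 and 66.6 FPKM in Lv3NC. In both, Lv3NC held the lowest and the highest library. KIF23 was at 39.5, 48.2 and 39.9 FPKM in Lv133KD, 40.4, 49.4 and 40.6 FPKM in Lv143KD, against 36.6, 42.3 and 44.2 FPKM in Lv3NC, and ANLN was at 30.7, 39.0 and 34.5 FPKM in Lv133KD, 30.5, 40.7 and 31.2 FPKM in Lv143KD, against 28.6, 33.8 and 29.6 FPKM in Lv3NC. ANLN was highest in the number 2 library of each group and above its same-numbered control in each pair in both knockdown groups. The log2 fold changes of ANLN were 0.17 in Lv133KD and 0.14 in Lv143KD, neither called.

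Of the chromosome genes, TOP2A was at 56.0, 70.3 and 55.9 FPKM in Lv133KD, 59.5, 72.5 and 77.5 FPKM in Lv143KD, against 67.9, 67.4 and 92.3 FPKM in Lv3NC. Lv3NC replicate 3 was highest and Lv133KD replicates 1 and 3 were lowest, with a log2 fold change of -0.31 (SE 0.16, adjusted p = 0.926) in Lv133KD against Lv3NC and a log2 fold change of -0.20 (SE 0.16, adjusted p = 1.00) against Lv143KD. SMC4 was at 33.0, 44.3 and 43.4 FPKM in Lv133KD, 37.6, 47.0 and 44.3 FPKM in Lv143KD, against 34.4, 39.8 and 43.2 FPKM in Lv3NC. NCAPG was at 21.0, 23.3 and 19.8 FPKM in Lv133KD, 21.4, 23.8 and 17.7 FPKM in Lv143KD, against 21.6, 22.6 and 19.0 FPKM in Lv3NC. The number 2 library was the highest of its group for both genes, except SMC4 in Lv3NC. NCAPH, the member that varied least in this table at 1.22-fold, was at 27.5, 30.0 and 27.1 FPKM in Lv133KD, 27.7, 30.6 and 29.1 FPKM in Lv143KD, against 27.3, 31.1 and 32.9 FPKM in Lv3NC. MKI67 was at 41.5, 44.7 and 33.3 FPKM in Lv133KD, 37.8, 45.7 and 33.2 FPKM in Lv143KD, against 31.2, 41.3 and 36.6 FPKM in Lv3NC, the number 2 library being the highest of each group.

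**Figure D5:**
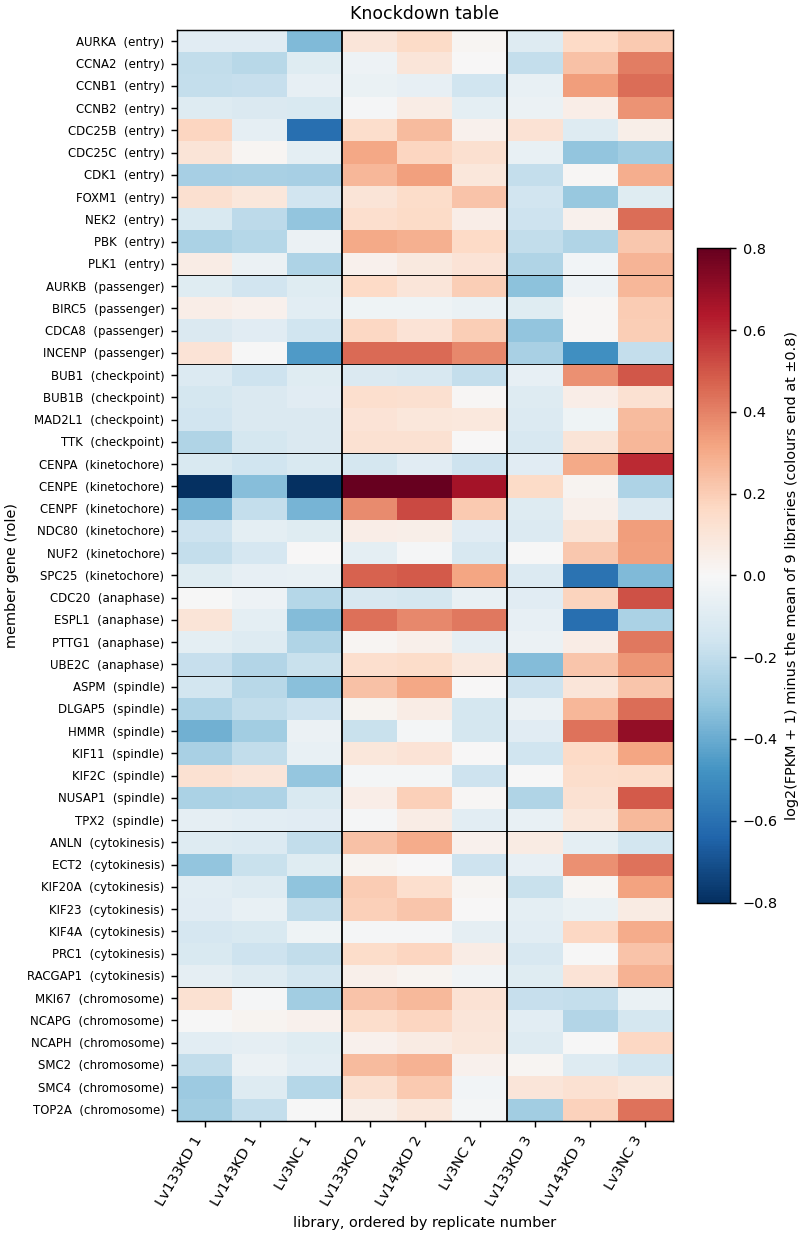
Colour shows log2(FPKM + 1) of each of the 49 mitotic genes (rows, by role) minus its mean over the 9 knockdown libraries (columns, ordered by replicate number), with colours ending at 0.8 in either direction. For CENPE, CENPF, SPC25 and ESPL1 the 3 libraries numbered 2 are above the other 6, and Lv3NC replicate 3 is highest for 31 genes.

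The neighbouring lists held 0 called genes in the knockdown comparisons, with or without the block. In Lv133KD the medians were -0.071 for spindle and cytokinesis, 0.034 for the kinetochore, -0.060 for mitotic entry control, 0.039 for the anaphase-promoting complex, 0.028 for cohesin and condensin and 0.032 for the DREAM and MuvB regulators. In Lv143KD these medians lay between -0.045 and 0.013. The smallest p-values among the mitotic entry genes of Lv133KD belonged to CDKN1B, the inhibitor p27, with a log2 fold change of -0.38, and GADD45A, with -0.44. SKA3, a subunit of the complex that couples kinetochores to microtubules, had 0.46 in Lv133KD and 0.26 in Lv143KD, neither called.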

How the data were processed

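RNA sequencing of total RNA from IPEC-J2 cells gave 15 libraries in 5 groups of 3, grouped by the sample labels. Gene-level FPKM was deposited by the authors, with 9 libraries in one table and 6 in another. The submitters' processing notes name the build Sscrofa11.1, and the aligner, the counting, the annotation and the use of strand were not given in the sources used here. Symbols and coordinates came from a RefSeq gene table of that build, which matched 18618 of 19000 and 16949 of 17001 gene identifiers. FPKM keeps no read total. The spacing of low values gave usable steps (within 0.2 of whole multiples) for 3 genes in the knockdown table, too few to set relative depths, and for 52 in the overexpression table, where the median log2 step ratios between libraries were 0 to 0.0055. A gene was used only if its values above 0 in all libraries fitted multiples of its lowest value. That choice itself favours ratios near 0, so they cannot show whether depths were equal. The SD over 3 libraries and the SE of the fit stand for precision.

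The scale was log2(FPKM + 1), on which changes of low genes come out too small. A gene was kept if 3 or more libraries of its table reached 1 FPKM. A single fit per table covered all kept genes, with limma 3.58.1 under R 4.3.3 (trended empirical Bayes variance, two-sided, Benjamini-Hochberg adjustment over all genes tested). The fit was also run on simulated data, with planted changes larger than that of any member and no effect of the replicate number. That run does not show how the fit does for changes as small as the members', or where libraries sharing a number move together. The 4 comparisons were OV143 against Lv20NC, Lv133KD and Lv143KD against Lv3NC, and Lv133KD against Lv143KD. Libraries sharing a replicate number had deviations from their group means that correlated at 0.27 to 0.85 in the knockdown table (9 pairs) and 0.23 to 0.72 in the overexpression table (3 pairs), against -0.87 to 0.38 and -0.68 to 0.54 for different numbers, so the numbers were also used as a block. What a number marks is not stated in the labels. No pair of libraries held identical values.

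The members, the 7 neighbouring lists (kinetochore, anaphase-promoting complex, cohesin and condensin, mitotic entry control, DREAM and MuvB, spindle and cytokinesis, DNA replication), the marker lists and the naming rule were chosen with earlier results of these data known. Values in every library are given for 24 set members, for members called with or without the block, for the 3 smallest p-values of each comparison and for the extremes of level and spread. In the lists, genes called and up to 3 with the smallest p-values are named. Alternatives were the block, a pseudocount of 0.1, no filter, a mean of at least 5 FPKM, median and quantile scaling, equal FPKM sums, the 2 groups alone, and each library left out. Of these, equal FPKM sums was chosen after seeing the data.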

Additional observations from a re-analysis of the deposited data

How the results depend on the processing

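No member was called in the knockdown comparisons under any alternative run. In OV143 against Lv20NC, called members numbered 0 without and 7 with the replicate block, 0 to 21 when a library was left out (21 without OV143 replicate 2, 0 without any other), and 3 to 35 with the block and one replicate number left out (9 without number 1, 35 without number 2, 3 without number 3). The adjusted p of the 7 members called with the block ran from 2.26e-08 to 0.946 over the alternatives, and their log2 fold changes from 0.38 to 0.76. The median of the 49 members in OV143 stayed between 0.28 and 0.34 with a library left out and between 0.26 and 0.32 with the block and a number left out, and was 0.19 with equal FPKM sums, with or without the block. In Lv133KD against Lv3NC the median ran from -0.19 to 0.033 with a library left out and from -0.15 to 0.045 with the block and a number left out, and in Lv143KD against Lv3NC from -0.11 to 0.097 and from -0.075 to 0.071, turning positive without Lv3NC replicate 3 or the libraries numbered 3. In Lv133KD against Lv143KD it ran from -0.13 to -0.016 and from -0.10 to -0.0086. Over all genes, those called in OV143 numbered 0, against 223 with the block, 194 with the block and equal FPKM sums, 2 with median scaling, 6 with quantile normalization, 0 to 513 with a library left out and 297 to 1466 with the block and a number left out (705 without number 1). In Lv133KD against Lv3NC they numbered 2, against 30 with the block, 39 with the block and equal FPKM sums, 1 with no filter, 0 with median scaling or only the 2 groups, 0 to 0 with a library left out and 1, 12 and 72 with the block and number 1, 2 or 3 left out. In Lv143KD against Lv3NC they numbered 2, against 20 with the block, 21 with the block and equal FPKM sums, 1 with no filter, 1 with median scaling, 0 with only the 2 groups, 0 to 0 with a library left out and 2 to 60 with the block and a number left out. Among single genes, none of them called in the fits that turned it, the sign turned for CDC25B in Lv143KD (-0.014 without Lv3NC replicate 1, 0.31 without Lv3NC replicate 3) and in OV143 for ANLN, CENPE and CENPF (-0.065 to -0.018 for ANLN, -0.12 to -0.012 for CENPE, which was -0.080 with the block and number 1 left out, and -0.0036 to -0.0023 for CENPF, which was 0.48 without OV143 replicate 2 and was called, at 0.32 with an adjusted p of 0.00483, with the block and number 2 left out). With equal FPKM sums, with or without the block, ANLN was -0.029, CENPE -0.051 and FOXM1 -4.56e-07. Signs of single genes were followed only for 26 of the 49 members in OV143 and for 3 in each knockdown comparison. Other members in OV143, not named here, also turned with equal FPKM sums. The cause of these changes was not tested. Groups of 3 libraries, unknown depth and replicate numbers of unstated meaning limit all calls.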

Other observations

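The genes of DNA replication, the machinery of the preceding S phase, did not run in step with the mitotic genes over the comparisons. Of 30 genes on that list, which was chosen with earlier results of these data known, 20 had a log2 fold change above 0 in OV143 against Lv20NC, with a median of 0.058. In Lv133KD 25 of 30 were above 0 against Lv3NC, with a median of 0.33, and 27 of 30 were above 0 against Lv143KD, also with a median of 0.33. In Lv143KD against Lv3NC 17 of 30 were above 0, with a median of 0.010. Over all genes tested the shares above 0 were 45.8%, 52.3%, 58.2% and 44.2%, in the order of these comparisons. The median SE of the list was 0.28 in the knockdown table, and in Lv3NC CDT1 averaged 4.21 ± 3.10 FPKM (SD). Medians of this list were not taken with a library left out. By limma 0 of the 30 were called in any of the 4 comparisons, with or without the block. CDT1, which licenses replication origins, had the smallest p in both comparisons with Lv3NC, with a log2 fold change of 1.24 in Lv133KD (SE 0.44, adjusted p = 0.926) and of 0.73 in Lv143KD (SE 0.44, adjusted p = 1.00). In OV143 MCM5, a subunit of the replicative helicase, had 0.31, and RRM2, a subunit of ribonucleotide reductase, had 0.21.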
